A study of Mus musculus with 2 samples.

Results

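Transcripts of 5 genes of the heterogeneous nuclear ribonucleoprotein (hnRNP) family, Hnrnpa2b1, Hnrnph1, Hnrnpr, Ptbp1 and Raly, are listed as spliced differently between a library of mouse embryonic fibroblasts lacking SRSF10 and one of wild-type fibroblasts. They account for 6 of the 100 alternative splicing events in the authors' deposited table, which covers 96 genes. All rows of these genes were taken, whatever their values, and every written symbol matched its gene identifier. The row of Raly carried a second identifier, that of the nonagouti gene.

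The series compared wild-type fibroblasts with fibroblasts deficient in SRSF10, each as 1 poly(A)-selected, paired-end library. No treatment, passage or embryo is given in the labels, nor is the way in which the gene was disrupted or whether the cells came from 1 clone. The title places the cells in work on adipocyte differentiation. The table holds splicing events only, so neither fibroblast markers nor the level of Srsf10 could be checked, and the genotype rests on the labels.

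The hnRNP proteins coat nascent transcripts and often repress splice sites, in a balance with SR proteins such as SRSF10, which bind purine-rich sequence and often promote exon use. Many hnRNP genes are themselves alternatively spliced. Some of their alternative exons place a stop codon ahead of a later exon junction, a position that can mark a transcript for nonsense-mediated decay, and several hnRNP proteins regulate their own transcripts in this way.

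Each event in the table opposes an inclusion isoform to an exclusion isoform. Inclusion is the authors' estimated share of transcripts with the cassette exon, the longer form of an exon or the retained intron, with an interval whose level no source used here gives. Reads that fit 1 isoform only are called inclusion-only or exclusion-only, and together exclusive. The remaining reads over an event fit both isoforms or neither. Differences are given as deficient minus wild-type, in percentage points.

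Inclusion was higher in the deficient library in 3 of the 6 events and lower in the other 3. It was higher for the 3′ UTR exon of Hnrnpa2b1, for its longer form and for the 5′ UTR exon of Raly. It was lower for the start codon exon of Hnrnpr, for a coding exon of Ptbp1 and for an intron of Hnrnph1. By Fisher's exact test on exclusive reads, 2 of the higher and all 3 of the lower events passed, at an adjusted p under 0.05 with at least 10 points of difference in the same direction. By the same rule 86% of all listed events passed, 49% as higher and 37% as lower. The authors' intervals of both libraries did not overlap in any of the 6 events, nor in 83% of all events. The table lists only events that differ by at least 20 points between these libraries, so these counts only describe the read support. Since each genotype has 1 library, no difference has a replicate check, and each p compares 2 libraries and not the genotypes. The median size of the difference was 24.5 points in the 6 events and 33.5 points in all 100.

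**Figure D1:**
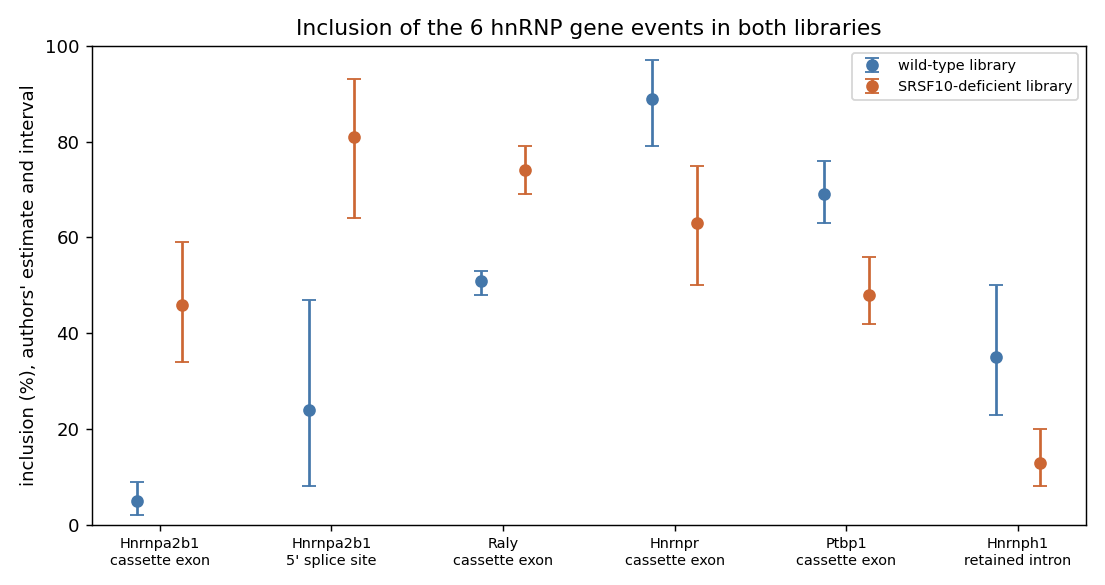
Inclusion (%, vertical axis) of the 6 events in the wild-type (blue) and the SRSF10-deficient (orange) library, 1 library each, with bars for the authors' intervals. The first 3 events are higher and the last 3 lower in the deficient library, and no pair of bars overlaps.

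The sequences that set the effect of each event on the reading frame are given first. They come from GENCODE M21 transcripts (GRCm38), in which events were placed by the lengths of exons and introns, and each is written 5′ to 3′ on the transcript strand. For Hnrnpa2b1 the line shows the last coding bases in the exon before the alternative 3′ UTR exon (chr6:51463432-51463493, minus strand), with the stop codon in capitals. For Hnrnpr the long form is the coding part of the cassette exon (chr4:136314099-136314255, plus strand) and the short form is the start of the reading frame used without it (chr4:136317111-136317140), with both start codons in capitals. For Ptbp1 the annotated exon is shown (chr10:79860117-79860194, plus strand), and capitals mark the 4 bases that lie beyond the exon of the table. For Hnrnph1 the line joins the 30 bases on each side of the alternative intron (chr11:50382842-50382871 and chr11:50382928-50382957, plus strand), with the codon split by the intron in capitals.
Hnrnpa2b1: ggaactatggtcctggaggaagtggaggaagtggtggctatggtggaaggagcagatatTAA
Hnrnpr long form: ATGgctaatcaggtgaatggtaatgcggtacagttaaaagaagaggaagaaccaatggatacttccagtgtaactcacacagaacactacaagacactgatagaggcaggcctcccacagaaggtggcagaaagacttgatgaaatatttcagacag
Hnrnpr short form: ATGaagacctacaggcaaagagagaaacaa
Ptbp1: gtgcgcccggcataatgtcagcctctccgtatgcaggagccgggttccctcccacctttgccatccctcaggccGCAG
Hnrnph1: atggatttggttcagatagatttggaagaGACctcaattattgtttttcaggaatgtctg

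Hnrnpa2b1 encodes hnRNP A2 and B1, which act in splicing, in RNA transport and in the recognition of RNA elements. In human cells its protein is known to act on the splicing of its own 3′ UTR, which yields transcripts subject to decay. The cassette exon is 136 nucleotides long (mm9 chr6:51411919-51412054, minus strand) and lies behind the stop codon. Its inclusion was 5% in the wild-type library (authors' interval 2% to 9%) and 46% in the deficient library (34% to 59%). In the wild-type library 7 exclusive reads held the exon and 78 skipped it, and in the deficient one 35 held and 20 skipped it. Inclusion therefore rose by 41 points (Fisher's exact test, adjusted p = 3.68e-11).

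Both isoforms of the exon moved in reads, in opposite directions. Per 100 reads that fit both isoforms, inclusion-only reads numbered 4.40 in wild-type and 36.1 in deficient cells, 8.20 times as many (exact 95% interval 3.59 to 21.9). Exclusion-only reads numbered 49.1 and 20.6 per 100, a ratio of 0.420 (0.244 to 0.694). Scaled by the median ratio of reads over all events, the ratios were 5.34 and 0.274. These intervals, and those of all read ratios below, cover counting error only.

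With the exon skipped, the last exon junction lies 21 nucleotides behind the stop codon shown above. With the exon included it lies 157 nucleotides behind, past the distance of about 50 nucleotides commonly given for decay. GENCODE M21 holds 3 transcripts with this exon, of which 2 are classed as subject to nonsense-mediated decay and 1 as protein-coding. The single transcript that skips it is protein-coding. The exon leaves the protein as it is, since the stop codon lies upstream of it.

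The second Hnrnpa2b1 event concerns the 5′ splice site of the same exon, which gives a long form of 136 or a short form of 73 nucleotides. The authors' estimate of the long form was 24% (8% to 47%) in wild-type and 81% (64% to 93%) in deficient cells. The exclusive reads were 5 for the long and 2 for the short form in the wild-type library, against 32 and 4. As shares of exclusive reads these are 71.4% (exact 95% interval 29.0% to 96.3%) and 88.9% (73.9% to 96.9%), which overlap. The adjusted p was 0.261 by Fisher's exact test, so this event missed the threshold. The short form would place the last junction 94 nucleotides behind the stop codon, and no GENCODE M21 transcript matched it. Both events share their 159 and 97 both-isoform reads and are not separate observations.

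Most reads over the Hnrnpa2b1 cassette event fitted neither isoform, 92.5% in wild-type and 95.7% in deficient cells, against medians of 47.0% and 49.4% over all events. In GENCODE M21, 3 further coding transcripts hold the same stop codon exon, continue beyond it and match neither isoform of the table. The exons that follow in them were not compared with those of the table. The 5% and 46% are therefore shares of the 2 listed isoforms and not of all Hnrnpa2b1 transcripts.

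Raly encodes an RNA-binding protein related to hnRNP C. Its cassette exon of 83 nucleotides (mm9 chr2:154646743-154646825, plus strand) lies in the 5′ UTR between introns of 29458 and 36179 nucleotides. Inclusion was 51% (48% to 53%) in wild-type and 74% (69% to 79%) in deficient cells, a rise of 23 points. Of 1294 exclusive reads in the wild-type library 710 held the exon, and of 327 in the deficient library 256 did (adjusted p = 6.65e-14, Fisher's exact test). Raly had the second largest number of exclusive reads among the 100 events. Complete annotated reading frames have 296 or 312 residues both with and without the exon, so the event alters the leader and leaves the encoded protein as it is.

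Raly had fewer reads of either isoform in the deficient library, and the exclusion isoform was lower by the larger factor. Reads over the whole event numbered 2618 and 1279, a ratio of 0.522 (exact 95% interval 0.488 to 0.558) once scaled by the median ratio of the table. The quartiles of this ratio over the 100 events were 0.897 and 1.18, and that of Raly was the ninth lowest. Inclusion-only reads stood at 0.385 times the wild-type number (0.333 to 0.445) and exclusion-only reads at 0.130 times (0.100 to 0.166). Per read that fits both isoforms, these ratios were 0.665 and 0.224. The reads that fitted neither isoform were 806 and 671, a scaled ratio of 0.890 (0.802 to 0.987). Reads over 1 event are not a measure of the level of a gene, and fewer cells with the transcript cannot be told apart from less transcript per cell.

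**Figure D2:**
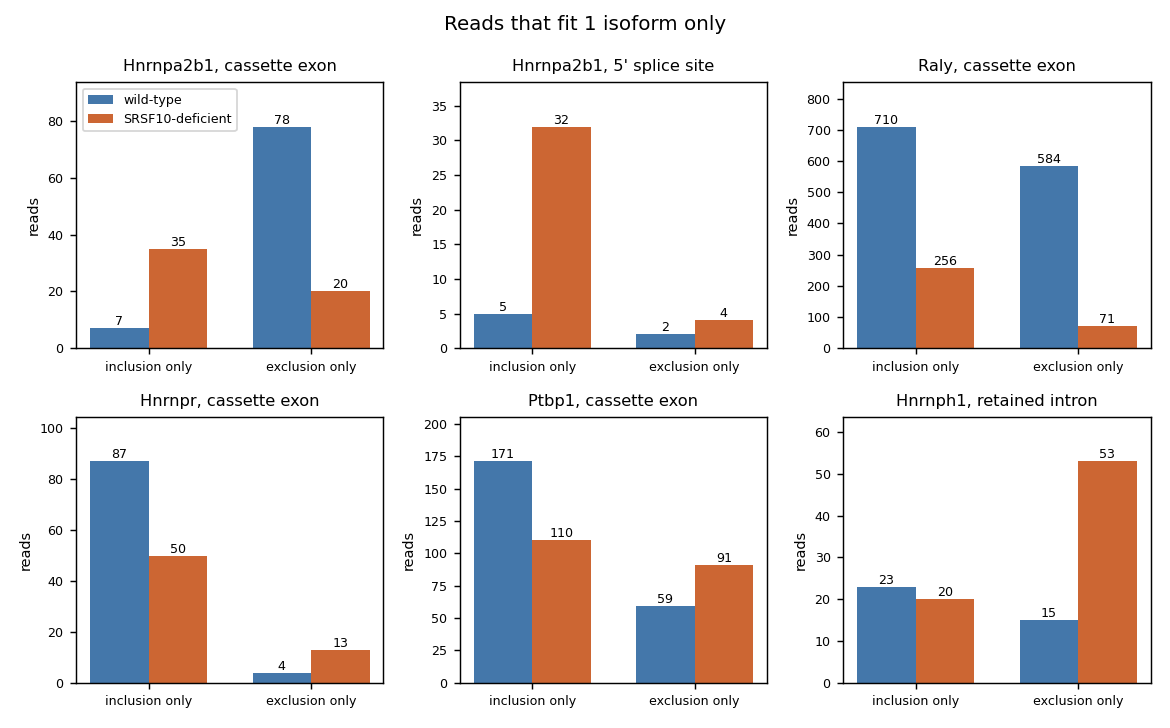
Reads (vertical axis, as deposited, not scaled) that fit only the inclusion or only the exclusion isoform of each event, with the wild-type library in blue and the SRSF10-deficient library in orange. In Raly both classes have fewer reads in the deficient library, while in Hnrnph1 inclusion-only reads stand at 23 and 20 and exclusion-only reads at 15 and 53.

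Hnrnpr encodes hnRNP R, an RNA-binding protein with a role in the transport of mRNA in neurons. Its cassette exon of 166 nucleotides (mm9 chr4:135870005-135870170, plus strand) holds the start codon of the full-length protein. Inclusion was 89% (79% to 97%) in wild-type and 63% (50% to 75%) in deficient cells, on 87 of 91 against 50 of 63 exclusive reads. It fell by 26 points (Fisher's exact test, adjusted p = 0.00562), and as a share of exclusive reads it fell by 16.2 points. The exclusion isoform, which lacks this start codon, had 4 exclusive reads in wild-type and 13 in deficient cells. After scaling, inclusion-only reads stood at 0.614 times the wild-type number (exact 95% interval 0.425 to 0.879) and exclusion-only reads at 3.47 times (1.07 to 14.6). Reads over the whole event stood at 1.11 times (0.937 to 1.31). No read fitted both isoforms, and 68.2% in wild-type and 78.7% in deficient cells fitted neither. The reads that fitted neither stood at 1.28 times (1.05 to 1.55), so the 1.11 does not describe the 2 isoforms alone.

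The annotated full-length frame has 632 residues, and transcripts that skip the exon are given the downstream start codon shown above and 531 residues. The shorter form lacks 101 residues at its amino end. Of the 2 transcripts with this exact exon and both introns, 1 is protein-coding and 1 is classed as subject to nonsense-mediated decay, and both transcripts that skip it are protein-coding. Purines made up 63.3% of the exon, more than in 95.8% of the 8969 internal exons of coding transcripts within 5 nucleotides of its length. The stretch of purines after the start codon can be read in the long form above.

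Ptbp1 encodes the polypyrimidine tract-binding protein, which represses many exons. A coding exon in its linker between RNA-binding domains is skipped in some mammalian transcripts, and the protein without it is known as the weaker repressor. The event lies at mm9 chr10:79322862-79322935 (plus strand). Inclusion was 69% (63% to 76%) in wild-type and 48% (42% to 56%) in deficient cells. The exon was held by 171 of 230 exclusive reads and by 110 of 201, and inclusion fell by 21 points (adjusted p = 0.000187, Fisher's exact test). Inclusion-only reads were 0.687 times (exact 95% interval 0.536 to 0.879) and exclusion-only reads 1.65 times (1.17 to 2.33) those of the wild-type library after scaling, and reads over the whole event 1.03 times (0.959 to 1.11).

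The exon in the table is 74 nucleotides long, 4 fewer than the exon that GENCODE M21 places behind the same intron of 161 nucleotides. The annotated exon of 78 nucleotides is the eighth of 14 in its transcript of 555 residues. Of the 3 annotated transcripts that skip it, 2 are protein-coding, with 529 and 489 residues, and 1 is classed as subject to nonsense-mediated decay. Against the transcript of 529 residues the exon adds 26 residues without a shift of the frame. An exon of 74 nucleotides would shift it. The bases that follow the end of the exon in the table are GCAG, the capitals in the Ptbp1 line. A read spliced at the annotated end of the exon would match neither isoform as the table draws them. The exon that follows also differs, with 294 nucleotides in the table and 146 in the annotated transcript. Of the reads over the event, 85.3% in wild-type and 86.2% in deficient cells fitted neither isoform. The part of either difference in these reads was not tested. Reads wholly within the 74 nucleotides would fit the listed inclusion isoform whichever end of the exon was used. The inclusion estimates thus refer to the 2 isoforms as the table draws them and are not shares of all Ptbp1 transcripts. Purines made up 39.7% of the annotated exon, and 3.80% of the 12068 internal exons of like length had a lower share.

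Hnrnph1 encodes hnRNP H, which binds runs of G. Its event is the retention of an intron of 56 nucleotides between exons 8 and 9 of 15. The flanking exons are 72 nucleotides (mm9 chr11:50196302-50196373, plus strand) and 134 nucleotides (mm9 chr11:50196430-50196563) long. Retention was 35% (23% to 50%) in wild-type and 13% (8% to 20%) in deficient cells, on 23 of 38 against 20 of 73 exclusive reads. It fell by 22 points in the authors' estimate and by 33.1 points as a share of exclusive reads, with an adjusted p of 0.00256 by Fisher's exact test.

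The difference in Hnrnph1 lay in the spliced reads. Reads for the retained intron were 0.929 times those of the wild-type library after scaling (exact 95% interval 0.484 to 1.77), and reads for the spliced isoform 3.78 times (2.10 to 7.21). Reads over the whole event stood at 1.00 times (0.910 to 1.10). The intron splits a codon after its first base, as in the line above, and its length is not a multiple of 3, so retention would shift the reading frame. No GENCODE M21 transcript held the intron in an exon, while 7 transcripts spliced it. Only 38 of 889 reads in wild-type cells were exclusive, against 73 of 833 without SRSF10, and 95.7% and 91.2% fitted neither isoform.

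**Figure D3:**
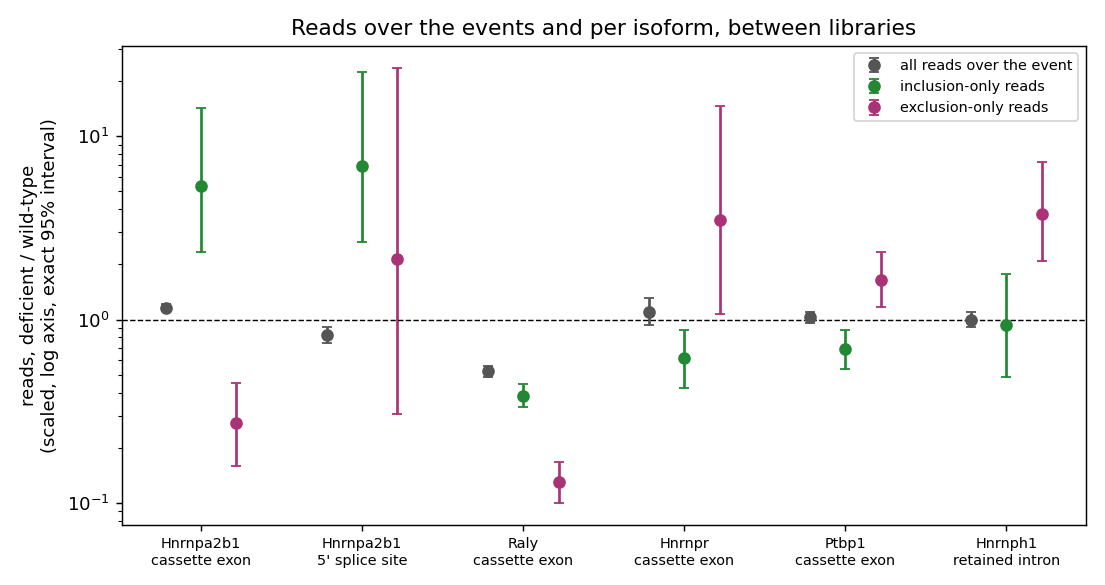
Ratio of reads in the SRSF10-deficient to the wild-type library (vertical log axis), scaled by the median ratio over all 100 events, for all reads over each event (grey), inclusion-only reads (green) and exclusion-only reads (purple), with exact 95% intervals for counting error. Raly lies below 1 in all 3 classes, and Hnrnph1 departs from 1 in exclusion-only reads alone.

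The word AGAGA, taken as 1 example of a purine-rich word and searched on the transcript strand only, occurred once in the Raly exon and not in the Hnrnpa2b1, Hnrnpr or annotated Ptbp1 exons. Of internal exons of like length, 15.8% held it at the length of the Raly exon, 24.0% at that of Hnrnpa2b1, 27.2% at that of Hnrnpr and 15.0% at that of Ptbp1. Purine shares were 50.7% in the Hnrnpa2b1 exon and 48.2% in the Raly exon, against medians of 52.6% and 53.2% in exons of like length. None of the 36-base words in the 4 alternative exons, or in the exons next to the Hnrnph1 intron, occurred in a GENCODE M21 transcript of another gene on either strand.

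Both measures of inclusion differed in the same direction in all 6 events, as in most of the 100 listed. The measures come from the same libraries, so this is not separate support. The share of exclusive reads gave 55.4 points for the Hnrnpa2b1 exon, 23.4 for Raly and -19.6 for Ptbp1, beside 41, 23 and -21 points in the authors' estimate. They lay furthest apart at the Hnrnpa2b1 5′ splice site, with 57 points in the authors' estimate and 17.5 points in the reads. That event ranked sixth of 100 by the authors' difference and had 7 and 36 exclusive reads. The other 5 ranked between 32 and 95.

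**Figure D4:**
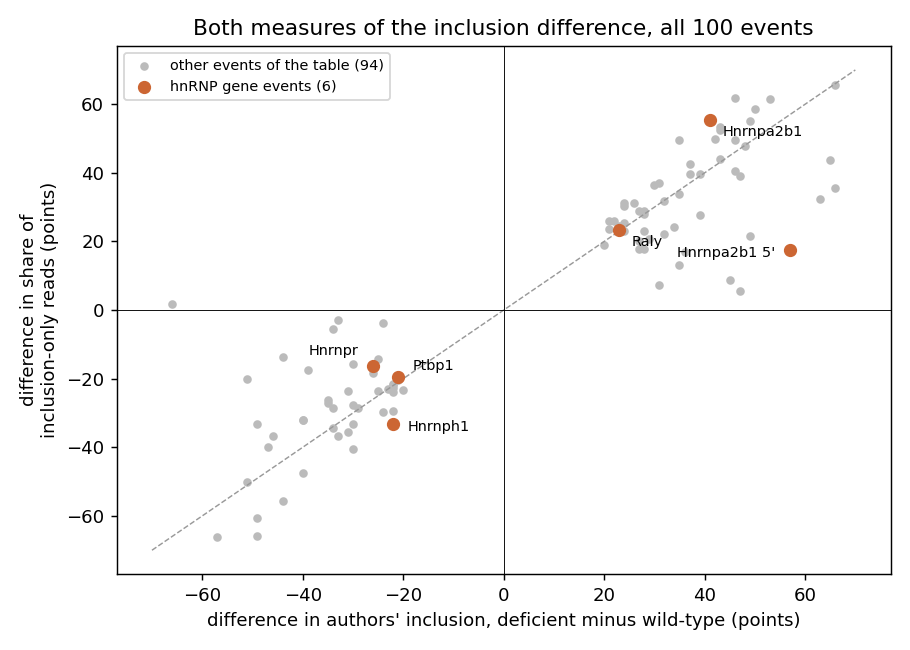
Difference between the libraries in the authors' inclusion (horizontal axis, points) against the difference in the share of inclusion-only reads (vertical axis, points) for the 6 hnRNP gene events (orange) and the 94 other events (grey); the dashed line marks equal values. The Hnrnpa2b1 5′ splice site, at 57 and 17.5 points, lies furthest of the 6 from the line.

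Of 35 hnRNP family genes on the list used, these 5 were in the table, and of 15 SR and SR-related genes none was, Srsf10 included. Of 32 other splicing or decay factor genes, 5 were listed with 1 event each, 3 higher and 2 lower. All 5 passed, as did 86% of all listed events. Rbm5, whose protein acts in 3′ splice site recognition, rose from 58% to 97%. The CUG-binding factors Celf1 and Celf2 rose from 11% to 41% and from 70% to 90%. Thrap3, an mRNA processing gene whose row the table writes as Colec12 with the identifiers of Thrap3 and of Gm25323, fell from 39% to 8%. Upf1, a core decay factor gene, fell from 79% to 39%, with the exon in 35 of 41 and in 8 of 15 exclusive reads. All read counts of that row equal those of the Tjp1 row, so they cannot be assigned to Upf1 alone. The median size of the difference in these 5 was 31 points. Genes outside the table were not analysed here, so their absence says nothing about their splicing.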

How the data were processed

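Poly(A) RNA of 1 wild-type and 1 SRSF10-deficient fibroblast culture was made into libraries for paired-end sequencing, per the protocols in the labels. The submitters' processing notes name TopHat and mm9. The program that estimated inclusion, its settings, its annotation and the selection of events are named by no source used here. Per the file headers, the authors deposited inclusion as a fraction with 2 bounds for each library, which is printed as a percentage here, a Bayes factor, which is a ratio, and read counts by isoform class. Sample 1 and sample 2 of the table were taken as wild-type and deficient from the labels' descriptions.

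Reads over the 100 events totalled 56927 and 52735. A two-sided Fisher's exact test compared inclusion-only and exclusion-only reads, with Benjamini-Hochberg adjustment over all 100 events. Scaled read ratios were divided by the median ratio of all events, 0.936, and carry exact conditional binomial intervals. These intervals treat reads as independent, which amplified reads are not. The test was tried on simulated reads. Python 3.11.15 and scipy 1.17.1 were used. Coordinates of events are mm9. Sequences and frames are from GENCODE M21 (GRCm38), matched by lengths, and no coordinate was converted. The named genes are all rows of the 5 hnRNP genes and every listed gene of 3 factor lists. The members and lists were chosen with earlier results of these data known. Alternatives were halved inclusion reads, other call rules, a minimum of 20 exclusive reads, overlapping events counted once and other scalings.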

Additional observations from a re-analysis of the deposited data

How the results depend on the processing

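The number of hnRNP gene events that passed was 5 with inclusion-only reads divided by 2, with a minimum of 20 exclusive reads per library (68 events left) and with overlapping events counted once (97 left). It was 6 by a Bayes factor of at least 10, which 96% of all listed events reached, and 6 by intervals that did not overlap, as in 83% of all events. Both rules added the Hnrnpa2b1 5′ splice site. It was 1 with a difference of at least 30 points, which by its construction keeps the Hnrnpa2b1 cassette exon alone among the 5. The median difference over all 100 events, 33.5 points, lies above that cut. Under the main rule 86% of all events passed. That share was not counted with halved reads, the read minimum, overlaps counted once or the 30-point cut. The counts under those settings are therefore not set against all events and show nothing particular to the hnRNP genes. Every inclusion difference kept its direction under 3 other measures of inclusion. All 3 use reads of the same libraries, so this is not separate support. Halving the inclusion-only reads of both libraries cannot change the direction of a difference in shares. Reads that fit both isoforms gave 0.610 times the wild-type number for both Hnrnpa2b1 events, against 0.826 for the 5′ splice site and 1.16 for the cassette exon over all reads, so the latter reversed. Most reads over the cassette event fitted neither isoform, 2999 in wild-type and 3381 in deficient cells, a scaled ratio of 1.20 (1.15 to 1.27). Why reads of that class were more numerous was not tested. Scaled by all events in place of both-isoform reads, an alternative chosen after seeing the data, the Raly ratios were 0.385 in place of 0.665 for inclusion-only and 0.130 in place of 0.224 for exclusion-only reads, since the both-isoform reads of Raly were themselves fewer. No paired analysis was possible because each genotype has 1 library. Depth limits the Hnrnpa2b1 5′ splice site, with 7 exclusive reads in the wild-type library.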
